A study of Rattus norvegicus with 2 samples.

Results

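The genes described here encode parts of the primary cilium or proteins whose loss gives cystic kidneys, 41 in all. They were listed by symbol, and a gene was taken as present when the accession of a non-control array probe matched it in a RefSeq gene table. This gave 29 genes with 44 probes, of 13435 genes named on the array. All 29 were measured on both arrays, meaning that the brightest probe was well above background and not saturated, as were 10484 of the named genes. The other 12 genes had no matched probe and have no value: Pkd1, Pkd2, Bicc1, Glis3, Nek8, Bbs5, Bbs9, Ift52, Ift122, Ift140, Tulp3 and Tmem216.

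Kidney RNA came from female PCK rats, a strain that carries a mutation in Pkhd1 and models autosomal recessive polycystic kidney disease. One group was gavaged daily with 10 mg/kg pioglitazone, a drug that activates PPAR-gamma, and the other with 0.5% DMSO as vehicle, both from 4 to 20 weeks of age. Both groups carried the strain's mutation, and the normal +/+ rats of the treatment text were not analysed here. RNA was pooled within each group, from 5 females by the design text and from 3 rats by the labelling text, and each pool was put on 1 array. No probe matched Pkhd1 itself, which is not analysed here.

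The primary cilium is a single sensory projection on most tubule cells. Intraflagellar transport (IFT) trains carry cargo along it: IFT-B moves outward with kinesin-2 motors, IFT-A returns with dynein, and the BBSome links membrane proteins to the trains. The transition zone at its base gates entry, and the polycystins, the fibrocystin encoded by Pkhd1 and the nephronophthisis proteins act in or near the cilium. Mutations in many of these genes give cystic kidneys in people and rodents.

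Ciliary genes often carry an X-box, the element bound by RFX transcription factors, near their start sites. The letters searched were GT, any 2 bases, CC, any 3 bases, G, any 2 bases and AC, on both strands of RefSeq windows on the GRCr8 build, 250 bases before to 50 after a gene start. Of the 38 members with a window, 6 (15.8%) held it, against 4.57% of all 33469 windows. The sites are shown because the match was found in members of different protein complexes. Only this element and the HNF1 site given below were searched, and most member windows held neither. Capitals mark the match, the strand is that of the gene, and up to 15 bases are given on each side where the site lies before the start. In Invs the letters fit only when read on the opposite strand, and in the other sites they fit on both.
Mks1, chr10:73153150-73153193, plus strand: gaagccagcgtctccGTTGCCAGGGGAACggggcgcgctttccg
Nphp4, chr5:168270826-168270869, plus strand: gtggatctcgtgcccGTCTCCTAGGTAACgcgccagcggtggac
Invs, chr5:67406457-67406500, plus strand: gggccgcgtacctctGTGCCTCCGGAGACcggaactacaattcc
Arl6, chr11:54181345-54181358, plus strand: GTTGCCAAGGGAAC
Ift140, chr10:14537469-14537482, plus strand: GTCGCCCAGGGAAC
Tmem216, chr1:216626509-216626522, minus strand: GTTTCCATGGGGAC
The match began 56 bases before the start in Mks1, 232 in Nphp4, 39 in Invs, 13 in Arl6 and 3 in Tmem216, and just after it in Ift140. A second element, the HNF1 site (GTTAAT, any 2 bases, TT, any base, AC, on both strands), was in 0 member windows and in 0.0747% of all windows. Such a match is a run of letters, not a shown binding site.

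The question was whether transcripts of the ciliary machinery differed between pioglitazone and vehicle kidneys. None of the 29 members differed by 1.5-fold in either direction. A gene was counted as higher or lower when its difference, pioglitazone minus vehicle on the log2 scale after scaling, reached 1.5-fold and also exceeded 2 times its technical error. By this rule 0 of 29 members were higher, where 0.754% of all measured genes were, and 0 were lower, where 1.76% were. The split of those calls over all genes, 79 higher and 184 lower, depended on the scaling, with 109 and 132 under median scaling and 130 and 117 in the unscaled values. At shares of 0.754% and 1.76%, few or no calls are due among 29 genes, so the count of 0 says little about the members. Each treatment was read on a single array, so the differences have no replicate check and no p-value. Variation from rat to rat is not part of the technical error.

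The member differences ran from -0.37 for Rpgrip1l to 0.22 for Cep290, with a median of 0.06 against 0.03 over all measured genes. Of the members, 18 were above 0 and 11 below, a share of 62.1% above 0 beside 56.1% of all measured genes. That count depended on the setting, with 24 of 29 above 0 in the unscaled values, 21 under median scaling and 13 with normexp background correction. Sizes under 0.2 were found in 24 of 29 members (82.8%) and in 70.1% of all measured genes. No member lay outside the central 95% of all measured genes, which ran from -0.53 to 0.41. Every member's difference was also within 2 times its technical error, a limit of 0.41 for most of them and 0.57 at most. That error was 0.204 both for Arl13b, at a vehicle signal of 242, and for Arl3, at 17800. For most members the limit therefore acted as a nearly fixed cutoff, not as a spread particular to the gene. At 1.2-fold, with the technical limit kept, 0 members were higher or lower, where 1.76% and 3.84% of all measured genes were. The limit is wider than 1.2-fold and held every member, so it alone fixed this count. At 1.2-fold without that limit, 0 members were higher, beside 8.22% of all measured genes, and 3 were lower (Rpgrip1l, Arl13b and Bbs7), beside 11.1%. In whole kidney, fewer ciliated cells and less RNA per cell cannot be told apart.

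**Figure D1:**
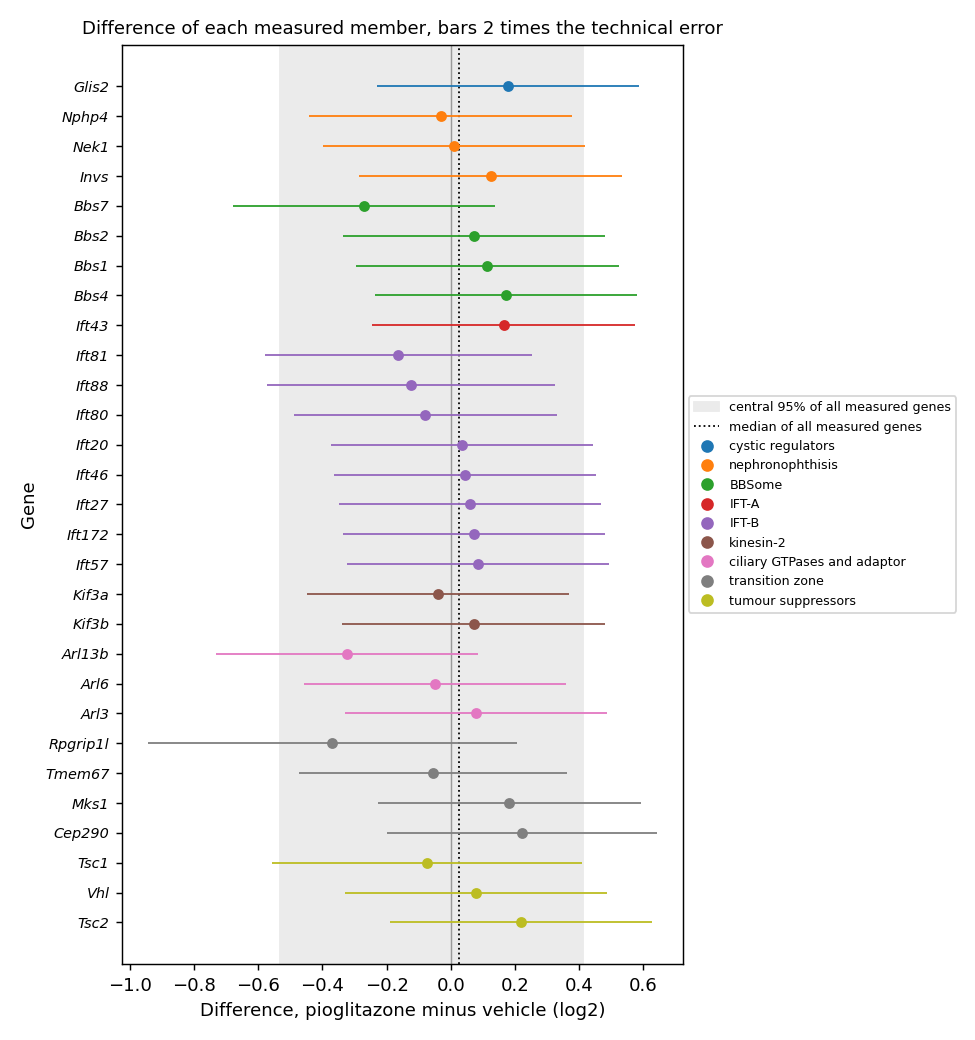
Difference of each of the 29 measured members, pioglitazone minus vehicle on the log2 scale, ordered within its group and with bars of 2 times the technical error. Every bar crosses 0, and every point lies inside the grey range from -0.53 to 0.41 that holds the central 95% of all measured genes.

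IFT-B, the train that builds the cilium, was the best covered complex, with 8 of its 9 listed genes measured. Its median difference was 0.04, with 5 genes above 0, 3 below and 0 past the 1.5-fold rule. Ift20, which also works at the Golgi in sorting cargo for the cilium, had a processed signal of 6800 on the vehicle array and 7370 on the pioglitazone array, a difference of 0.03 after scaling. The scaling took off a shift of 0.08 by which the pioglitazone array was brighter, so a slightly brighter signal there can be a difference near 0.

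Ift27, a small GTPase of the train, was at 2330 with vehicle and 2570 with pioglitazone (0.06). Ift57 was at 2180 and 2450 (0.09), and Ift172, a large subunit that works at the tip in turning trains around, at 1410 and 1570 (0.07). Ift46 was at 810 and 885 (0.05). The differences of these 5 subunits lay within 0.03 to 0.09.

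The remaining 3 subunits were below 0. Ift80, whose human counterpart is mutated in a skeletal ciliopathy, was at 393 with vehicle and 394 with pioglitazone (-0.08). Ift81, which binds tubulin cargo, was at 103 and 97.4 (-0.16). Ift88, the gene disrupted in the Oak Ridge polycystic kidney mouse, was at 34.8 and 33.8 (-0.12). A second, dimmer Ift88 probe was not well above background on either array. All 8 differences were under 2 times the technical error, so no order among the subunits can be read from them.

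IFT-A had 1 of its 3 listed genes measured. Ift43, a small subunit needed for return transport, had signals of 166 with vehicle and 197 with pioglitazone, a difference of 0.16 beside a limit of 0.41. The kinesin-2 motor genes, whose products pull IFT trains outward, were both measured. Kif3a was at 796 and 820 (-0.04) and Kif3b at 4280 and 4760 (0.07). Both motor genes were well within their technical limit of 0.41.

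The BBSome had 4 of 6 listed genes measured, with a median of 0.09 and 3 above 0. Bbs4 was at 1910 with vehicle and 2280 with pioglitazone (0.17), and Bbs1, the subunit that contacts the GTPase ARL6, at 445 and 510 (0.11). Bbs2 was at 1410 and 1570 (0.07). Bbs7, a partner of Bbs2 in the core of the complex, was the exception, at 205 and 180 (-0.27, limit 0.41). The subunits therefore spanned 0.44 on the log2 scale within a single complex, and none differed beyond its technical limit.

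Small GTPases direct traffic into the cilium, and all 3 listed GTPase genes were measured. Tulp3, an adaptor placed in the same group, had no matched probe. Arl13b, a GTPase of the ciliary membrane whose loss gives Joubert syndrome in people, had signals of 242 with vehicle and 205 with pioglitazone, a difference of -0.32 beside a limit of 0.41. Its second probe, at 134 and 106, gave -0.42, just past its own limit of 0.41. It was the only member with every probe below -0.3 among those read by several probes.

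Arl3, which releases lipidated cargo inside the cilium, was at 17800 with vehicle and 19900 with pioglitazone (0.08). Arl6, which recruits the BBSome to membranes, was at 540 and 553 (-0.05). Its other probes gave 0.01 and 0.19, so its direction was not settled. The group median of -0.05 is the value of Arl6.

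**Figure D2:**
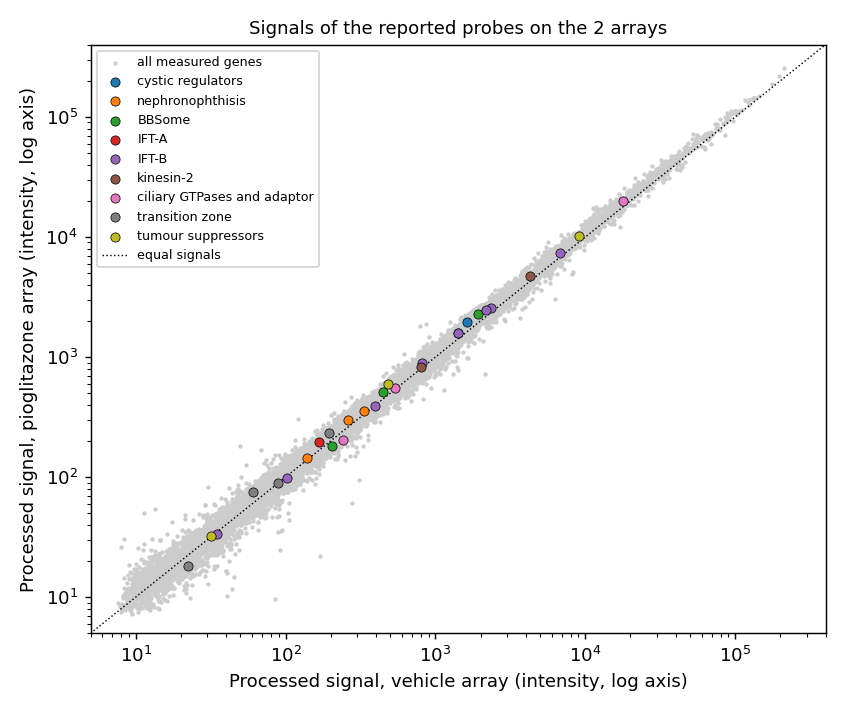
Processed signal of the reported probe on the pioglitazone array against the vehicle array, on log axes, for the 10484 measured genes (grey) and the 29 members (coloured by group). The members run from Rpgrip1l at 22.2 and 18.2 to Arl3 at 17800 and 19900 and stay close to the line of equal signals.

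The transition zone had 4 of 5 listed genes measured and held both extremes of the whole set. Cep290, a large protein that ties the membrane to the microtubules, had signals of 60.4 with vehicle and 74.6 with pioglitazone (0.22). Rpgrip1l, a scaffold of the zone, was at 22.2 and 18.2 (-0.37), and its limit of 0.57 was the widest of the members beside a dim probe. Of all measured genes, 6.03% had a lower difference than Rpgrip1l. Mks1, mutated in Meckel syndrome, was at 194 and 233 (0.18), and its dimmer probe at 24.3 and 32.4 gave 0.33. Tmem67, a membrane receptor of the zone, was at 88.4 and 90.1 (-0.05), and a dimmer probe at 26.2 and 23.6 gave -0.23. The group median was 0.06, with 2 genes above 0 and 2 below.

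Of the nephronophthisis genes and their relatives, 3 of 4 were measured, with a median of 0.01. Invs encodes inversin, which marks a compartment of the lower ciliary shaft, and had signals of 259 with vehicle and 299 with pioglitazone (0.12). A second Invs probe, at 7.05 and 11.9, was well above background with pioglitazone alone. Nphp4, a scaffold at the ciliary base, was at 140 and 145 (-0.03). Nek1, the kinase mutated in the kat mouse with cystic kidneys, was at 333 and 355 (0.01). None of the 3 came near its technical limit of 0.41.

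Glis2 was the measured gene of 3 regulators of cystic disease and encodes a zinc finger factor whose loss gives a nephronophthisis with fibrosis. Its brighter probe had signals of 1620 with vehicle and 1940 with pioglitazone (0.18, limit 0.41). Its dimmer probe, at 35.7 and 55.6, gave 0.56, past its technical limit of 0.45 but short of 1.5-fold, which is 0.58. The probes had the same direction and differed in size by 0.38, the widest gap among members. With the probes averaged, the difference of Glis2 was 0.37.

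Vhl, Tsc1 and Tsc2 are tumour suppressors whose loss gives renal cysts, and all were measured. Tsc2, the GTPase-activating part of the complex that restrains mTOR, was at 486 with vehicle and 599 with pioglitazone (0.22). Its partner Tsc1 was dim, at 31.8 and 32.0 (-0.07). Vhl, the substrate-binding part of the ubiquitin ligase that degrades hypoxia-inducible factors, was at 9040 and 10100 (0.08). The differences of all 3 were within 2 times the technical error.

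**Figure D3:**
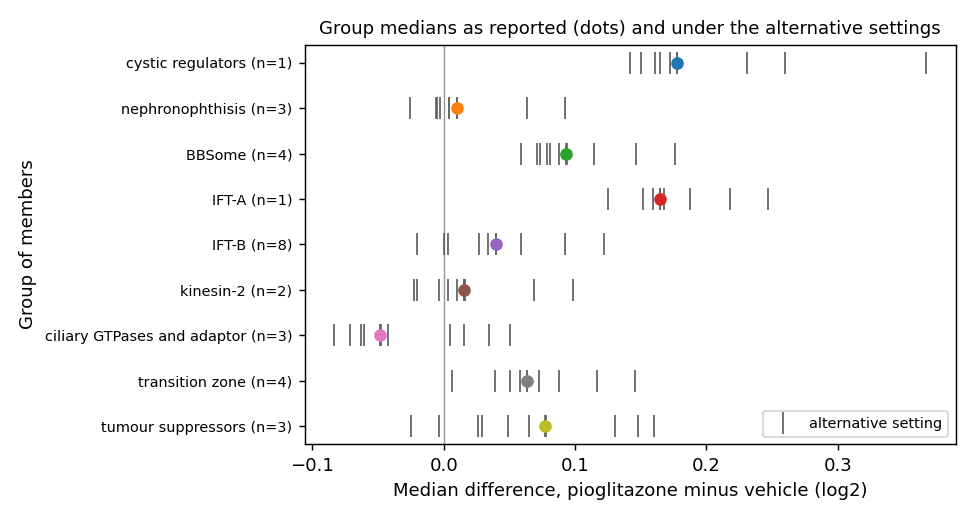
Median difference of each group of members on the log2 scale (dots; the value of the gene where n is 1) and the same median under each alternative setting (ticks). The medians run from -0.05 for the ciliary GTPases to 0.18 for the single cystic regulator, Glis2, and several groups cross 0 when the setting changes.

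Across the groups, medians ran from -0.05 for the GTPases and 0.01 for nephronophthisis genes, through 0.02 for kinesin-2, 0.04 for IFT-B, 0.06 for the transition zone, 0.08 for the tumour suppressors and 0.09 for the BBSome, to 0.16 for Ift43 and 0.18 for Glis2. No error of a group median can be had from 1 array per group, so these medians are given as values without an order. The polycystin group had no matched probe and has no median.

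Several probes of the same gene gave a check within each array. Of the 10 members read by several measured probes, 5 had every probe in the same direction (Arl13b, Bbs1, Glis2, Mks1 and Tmem67), where 64.5% of such genes on the whole array did. In the other 5, Arl6, Bbs4, Kif3b, Nek1 and Vhl, probes lay on both sides of 0. Bbs4 showed the clearest split, with 0.17 from the probe at 1910 and 2280 and -0.08 from the probe at 181 on both arrays. The median gap between the highest and the lowest probe of a member was 0.15, beside 0.13 for all genes with several measured probes. The median size of the members' differences, without sign, was 0.08. Each member probe was printed as 1 spot, so no spot replicate exists for it.

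**Figure D4:**
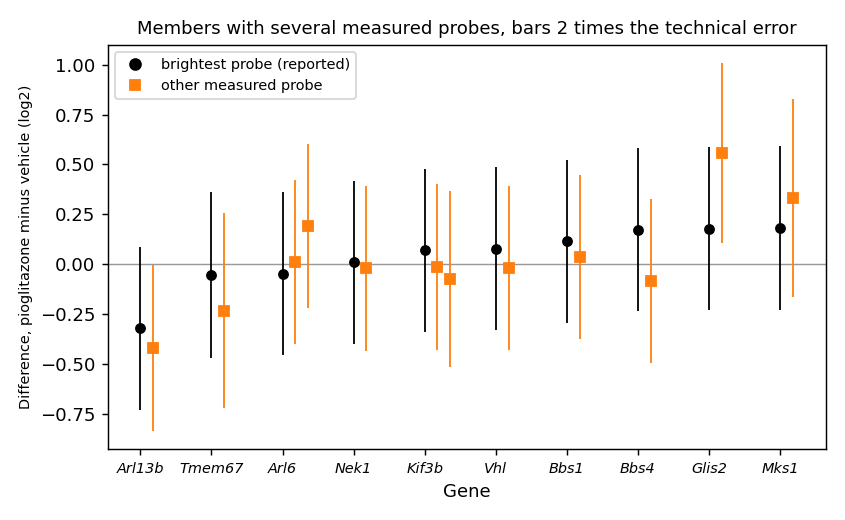
Difference on the log2 scale for every measured probe of the 10 members with several, with bars of 2 times the technical error; circles are the brightest, reported probes. Bars clear 0 for the second Arl13b probe (-0.42) and the second Glis2 probe (0.56) alone.

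The sign of a member's difference went with its signal. Among the 15 members above the median signal of all measured genes, 13 were above 0, with a median of 0.07. Among the 14 at or below it, 5 were above 0, with a median of -0.06. All measured genes had shares above 0 of 63.0% and 49.2% in the same signal classes, with medians of 0.04 and -0.004. The part of signal level in the members' signs was not tested.

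The 4 measured members with an X-box had differences of 0.18 for Mks1, 0.12 for Invs, -0.03 for Nphp4 and -0.05 for Arl6, a median of 0.05. The 25 measured members without this match, which include genes without a window, had a median of 0.06. The values of the X-box genes fell inside the range of the others.

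Other genes of the pathway were listed by function, and they too held no measured gene past the 1.5-fold rule. Of all measured genes, 0.754% were higher and 1.76% lower by it. At such shares few or no calls are due in lists of this size, so a count of 0 says little about them. Among other IFT and ciliary motor genes, 9 of 18 were measured, with 0 past the rule in either direction and a median of 0.003. Dync2h1, the motor heavy chain of return transport, had signals of 85.9 with vehicle and 122 with pioglitazone (0.42), just past its technical limit of 0.42, while Ift56 was at 0.17 and Dynlt2b at -0.14. Of 30 other BBS, transition zone and nephronophthisis genes, 19 were measured, with 0 past the rule and a median of 0.01. The largest sizes there were -0.29 for Rpgr, 0.28 for Anks6 and 0.25 for Tctn2.

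Other cystic disease genes had 10 of 16 members measured, with 0 past the rule and a median of 0.08. Pkd2l2, a polycystin-2 relative, was at 0.25, Lrp5, a Wnt co-receptor, at -0.23 and Dnajb11, a chaperone of the endoplasmic reticulum, at 0.22. Hedgehog signalling runs through the cilium, and 13 of its 18 listed genes were measured, with 0 past the rule and a median of 0.07. The ligand Ihh had signals of 2660 and 3590 (0.35), its 4 probes ran from 0.03 to 0.61, and Evc2 was at -0.17.

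Genes of the mTOR and VHL complexes, the partners of the tumour suppressors, had 14 of 17 measured, with 0 past the rule and a median of 0.03. Ddit4, an inhibitor of mTOR signalling, was at -0.38, Mtor at 0.20 and Eif4ebp1 at -0.19. Factors of ciliary transcription and disassembly had 7 of 17 measured, with 0 past the rule and a median of -0.15. That median was -0.05 with normexp, -0.07 with dim probes let in, -0.08 with the mean over probes or without the middle grid rows, and 0.03 above the median signal. Plk1, a mitotic kinase, was at -0.26, and its 2 probes ran from -0.47 to -0.26. Rfx2, an X-box factor, was at -0.21 and Nek2, a centrosomal kinase, at -0.15. Rfx1, another X-box factor, was well above background with pioglitazone alone, where its scaled signal was 1.63-fold that with vehicle. Rfx5, listed as a member of the RFX family, was well above background only with vehicle. Its scaled signal there was 1.11-fold that with pioglitazone. Both are plain ratios of dim signals, not lower bounds. On the log2 scale both were smaller than 2 times the technical error of their dim spots.

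**Figure D5:**
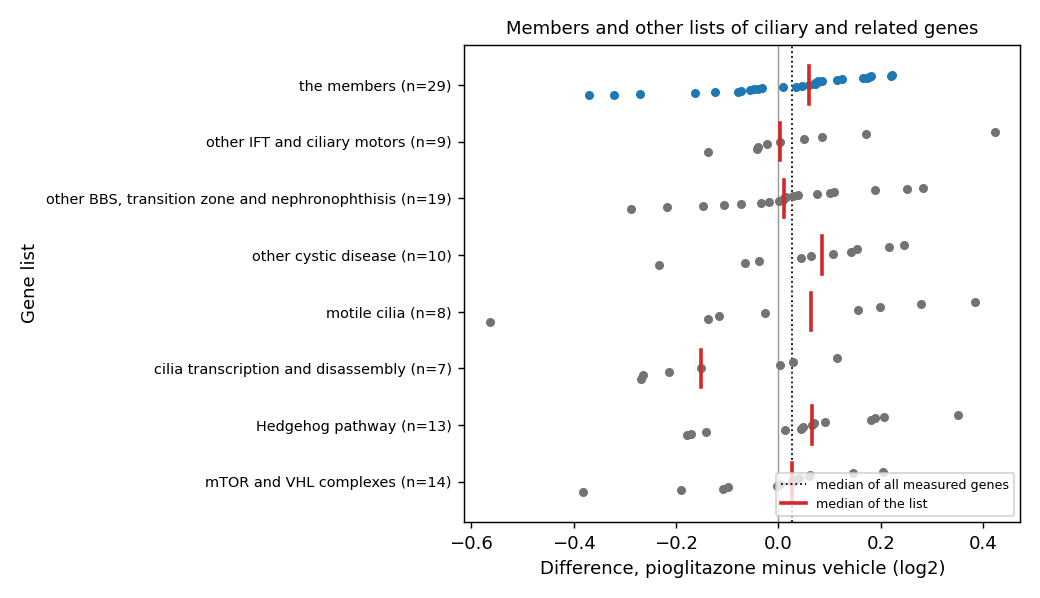
Difference on the log2 scale of each measured gene (dots) in the 29 members and 7 other lists, with each list's median (red bar). The medians run from -0.15 for ciliary transcription and disassembly to 0.08 for other cystic disease genes.

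Motile cilia belong to multiciliated cells and share IFT genes with the primary cilium. Of 24 motile cilia genes, 12 had a matched probe and 8 were measured, with 0 past the rule and a median of 0.06. Tekt1, an axonemal filament gene, was at 37.7 and 27.0 (-0.56, limit 0.46), Dnaaf1, a dynein assembly factor, at 0.38 and Tekt2 at 0.28. In the shorter multiciliated marker list, 3 of the 6 genes were measured, with a median difference of -0.12 after scaling and 2 genes below 0. Their summed signal before scaling was 180 with vehicle and 181 with pioglitazone, and Dnai1 was not well above background on either array. Their part in the members' values was not tested.

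The labelled tissue matched its markers. The signals before scaling of the 5 proximal tubule markers summed to 138740 with vehicle and 154850 with pioglitazone. Those of the 3 measured of 4 thick ascending limb markers summed to 197236 and 222645, of which Umod alone gave 195000 and 220000. Cells resorb the cilium when they divide, and the 2 measured dividing-cell markers of 4 were below 0, with Cdk1 at -0.54 and Ccnb1 at -0.44, both past their technical limits and short of 1.5-fold. All sums here are before scaling. The summed signal of the dividing-cell markers was 742 with vehicle and 545 with pioglitazone. The 3 macrophage markers were all below 0, with a summed signal of 2070 and 1790. The 3 podocyte markers were all above 0, with a median of 0.32 and a summed signal of 11659 and 13840. Most of that sum was Podxl, at 10100 and 11700. The principal cell list had 4 markers with a median of 0.02 and the intercalated list 3 with a median of 0.20. The part of these cell types in the members' values was not tested.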

How the data were processed

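Kidney RNA of pooled rats was labelled with Cy3 and read on 2 one-colour Agilent arrays that shared 1 slide and scan. The deposited scanner files hold linear intensity values. They were made with Agilent Feature Extraction 10.7.3.1, per the file headers, whose columns give background-subtracted and processed signals of each array; no scaling between arrays is given there. The deposited value table equals these intensity values at all 45018 features. Of 43379 non-control spots, 71.8% were well above background with vehicle and 73.1% with pioglitazone, and none was saturated.

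From there, 149 spots flagged as outliers were left out, log2 values were centred on each array's 75th percentile, and spots of a probe were averaged. Probe accessions named 16959 of 40998 probes through the RefSeq table of GRCr8. A gene took its brightest probe. The technical error adds, in quadrature, the relative errors that the software gives for the vehicle and the pioglitazone spot. No test was possible, and the number of arrays limits the precision. The procedure was tested on simulated data. Python 3.11.15, pandas 2.3.3 and statsmodels 0.14.6 were used. The members and lists were chosen with earlier results of these data known. All members may be named, and of other lists those past the rule or up to 3 with the largest difference and agreeing probe direction. A gene selected this way is not reported here. Rfx1 and Rfx5, each well above background on 1 array alone, and Dnai1 were named after their values were seen.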

Additional observations from a re-analysis of the deposited data

How the results depend on the processing

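The count of members past 1.5-fold was 0 in both directions under all 14 alternatives. Most of these could not add a call. Such were 2-fold, genes above the median signal alone, dim probes let in, and 1.2-fold with the technical limit kept. Dropping the technical limit at 1.5-fold could not either: the largest member difference was -0.37 (Rpgrip1l), and 1.5-fold is 0.58. Nor could the scalings that shift all members by 1 constant of 0.08 at most. The members' median of 0.06 was lowest with normexp (-0.004) and highest without scaling (0.14). It turned sign once in 11 alternatives, and 16 of 29 members kept their sign throughout. Of the group medians, IFT-B, kinesin-2, GTPases, nephronophthisis and tumour suppressors turned sign under at least 1 alternative. Of the 7 other ciliary lists, the median of other cystic disease genes stayed above 0 (0.07 to 0.17), and those of the other 6 turned sign under at least 1 alternative. Of 304 member values, 1 moved by more than its technical error: Arl6 went from -0.05 to 0.18 without the sixth and the seventh bands of grid rows, where its brightest probe lies and another probe takes over. Many of the 304 could not move so far. Letting in dim probes or keeping only genes above the median signal left member values unchanged. The other percentile scalings and no scaling shifted all members by 1 constant, 0.08 at most, beside errors of at least 0.20. Calls over all genes, 79 higher and 184 lower, were 10 and 47 with normexp, 5 and 30 above the median signal, 128 and 229 when dim probes were let in, 185 and 403 at 1.2-fold and 17 and 31 at 2-fold. Normexp was run on median spot signals. A bright member's difference under 0.41 on the log2 scale is within 2 times its technical error. No paired analysis was possible because there was 1 array for each treatment.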
